A study of Mus musculus with 9 samples.

Results

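Adipose progenitors are recognized by a small set of genes, and 10 of them, Pdgfra, Pdgfrb, Cd34, Ly6a, Dlk1, Osr1, Meox2, Pi16, Dpp4 and Thy1, were followed across 3 stages of the mouse mammary gland. A gene was taken as measured where a probe set of the array carried its symbol and no other, which held for 9 of the 10 genes, with 1 probe set each, among 19930 genes and 21762 probe sets of 1 symbol. No such probe set was found for Ly6a, which encodes Sca-1, and it was not analysed here. The genes were selected on these same measurements, in which Pdgfra, Osr1 and Meox2 had already been seen to be lower during lactation, so that their stage differences are a description, with no p-value given for them.

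The samples were 9 preparations of adipose stromal cells (ASCs) from mammary glands of female Balb/c mice, 3 for each stage, hybridized to Affymetrix Mouse Gene 1.0 ST arrays. ASC-Ns came from nulliparous mice at 8 weeks of age that had not been housed with males, ASC-Ls from mice at day 5 of lactation and ASC-Is from mice at day 3 of involution, after the pups were removed. The methods state that mice of the later stages were mated at 8 weeks of age, so that they were older than the ASC-N mice. Age and parity cannot be told apart from stage in comparisons with ASC-Ns. No transgene, drug or diet was used in any stage. The methods describe cultures of low passage from the inguinal fat pads, whereas the sample labels describe stroma separated by enzymatic digestion and centrifugation, and neither says how many mice stand behind an array, which the labels call a biological replicate of its stage.

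Adipose progenitors are mesenchymal cells of the stromal and perivascular niche of fat that can commit to preadipocytes and then to lipid-storing adipocytes. PDGF receptors mark them and, when strongly activated, hold them in an undifferentiated or fibrogenic state, while cells bearing Dpp4 and Pi16 form an interstitial pool upstream of committed preadipocytes. In the mammary gland the fat pad shrinks as the milk-producing epithelium expands in lactation and is refilled in involution.

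The sequence before the annotated start of transcription is shown for Pdgfra and Meox2, because both had ASC-L arrays that did not overlap the ASC-N arrays. RefSeq promoter windows of GRCm38.p6 were found for 6 of the 10 genes. The windows printed are the 250 bases before the start, at chr5:75152001-75152250 for Pdgfra and chr12:37108290-37108539 for Meox2, both on the plus strand, with matches to the searched motifs in capitals.
Pdgfra: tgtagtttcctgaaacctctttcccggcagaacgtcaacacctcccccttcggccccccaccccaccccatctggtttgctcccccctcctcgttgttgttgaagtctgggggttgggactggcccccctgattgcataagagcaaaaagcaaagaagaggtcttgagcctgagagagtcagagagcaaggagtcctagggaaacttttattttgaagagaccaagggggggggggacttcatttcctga
Meox2: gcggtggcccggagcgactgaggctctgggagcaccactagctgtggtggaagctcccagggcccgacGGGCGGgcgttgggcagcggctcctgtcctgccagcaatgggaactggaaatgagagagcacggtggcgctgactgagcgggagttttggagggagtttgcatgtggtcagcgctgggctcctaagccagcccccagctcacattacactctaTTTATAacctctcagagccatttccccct
The motifs searched, on both strands, were the TATA box (TATAAA), the CCAAT box (CCAAT), the GC box (GGGCGG), the nuclear receptor half-site (AGGTCA) and an E-box (CAGCTG). The Meox2 window held the TATA box on the minus strand, from 29 bases before the start, and the GC box on the plus strand, from 182 bases before it. Of 32851 promoter windows of this length, 12.4% held the TATA box and 32.7% the GC box. The Pdgfra window held none of them, and the windows of Cd34 and Dlk1 held none either. Pi16 had a CCAAT box from 64 bases and Dpp4 a TATA box from 227 bases before the start, both on the plus strand of the window, and 33.8% of all windows held the CCAAT box. The half-site and the E-box occurred in 14.0% and 13.0% of all windows and in none of the 6. A match is a run of letters and does not show that a factor binds there.

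All values are log2 signals of a probe set, on which a difference of 1 is a 2-fold difference, and levels are not compared between genes because probes differ in brightness. Differences between stages were fitted with limma, with a standard error (SE) from all 9 arrays. A gene is called past the limits where the unadjusted p was under 0.05 and the difference at least 1.5-fold. For the 9 progenitor markers, which were chosen on these values, the limits only mark how large a difference was beside the spread of the arrays, and the mark is no evidence for the difference. After Benjamini-Hochberg adjustment over all probe sets limma called 0 at an adjusted p under 0.05 in each comparison. An unadjusted p under 0.05 was found for 752, 389 and 333 of the 21762 probe sets between ASC-L and ASC-N arrays, ASC-Ls and ASC-Is, and ASC-Is and ASC-Ns. Each count is below the share of 0.05 that would pass on average if no probe set differed. Array medians over named probe sets lay between 6.26 and 6.33, and arrays of 1 stage correlated with r from 0.960 to 0.991 over probe sets, which are not independent replicates. Of 15 fibroblast markers, 14 or 15 lay above the median of every array, as stromal cells would have, and of 10 markers of mature adipocytes only 1 to 3 did. Adipoq, the adipocyte hormone adiponectin, lay between 3.82 and 4.41 in all arrays. Since probes differ in brightness, a place above or below the median of an array is only a rough guide to whether a gene was expressed.

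ASC-L replicate 2 stood apart from the other arrays. Its 14 luminal epithelial markers averaged 8.93 on the log2 scale, followed by 7.59 for ASC-I replicate 2, whereas the other 7 arrays lay at 5.68 to 6.88. These 2 arrays, the ASC-L and ASC-I replicates 2, are called the epithelium-rich arrays. In ASC-L replicate 2 the 15 fibroblast markers averaged 10.36, the lowest of the 9 arrays, against 10.79 to 11.30 in the others. It was also the lowest of all 9 arrays for 5 of the 9 progenitor markers, Pdgfra, Dlk1, Osr1, Dpp4 and Thy1. Differences of the 9 genes that rest on it are given with and without it.

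Of the 9 genes, 8 had a lower mean in the ASC-L than in the ASC-N arrays, the exception being Dpp4, and 8 were highest in ASC-Ns. Past the limits between these stages were 3 genes, Pdgfra, Osr1 and Meox2, all lower in ASC-Ls. Among all probe sets 0.620% were past the limits in this comparison, and since these genes were chosen for it nothing is read from the count. The median difference of the 9 genes was -0.33, against 0.01 over all probe sets. Without ASC-L replicate 2 it was -0.06, with 6 of 9 genes lower in ASC-Ls, and without ASC-N replicate 1 it was -0.28, also with 6 of 9 lower. With array weights estimated by limma it was -0.16, with 7 of 9 lower. Of the 9 genes, 8 were again lower in involution than in nulliparous arrays, at a median of -0.32 against 0.00 over all probe sets, and only Meox2 was past the limits, beside 0.271% of all probe sets. Without ASC-N replicate 1 this median was -0.14, with 6 of 9 genes lower and none past the limits, and without ASC-I replicate 1 or 2 it was -0.19 and -0.17. Both comparisons use the same ASC-N arrays. Between ASC-Ls and ASC-Is 6 of 9 were lower in ASC-Ls, the median was -0.07, against 0.01 over all probe sets, and none was past the limits, beside 0.455% of all probe sets. That median was 0.10 without ASC-L replicate 2, with 4 of 9 lower, and -0.33 without ASC-L replicate 3, with 8 of 9 lower. In RNA of a mixed preparation, fewer cells of a type and less RNA per cell cannot be told apart.

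**Figure D1:**
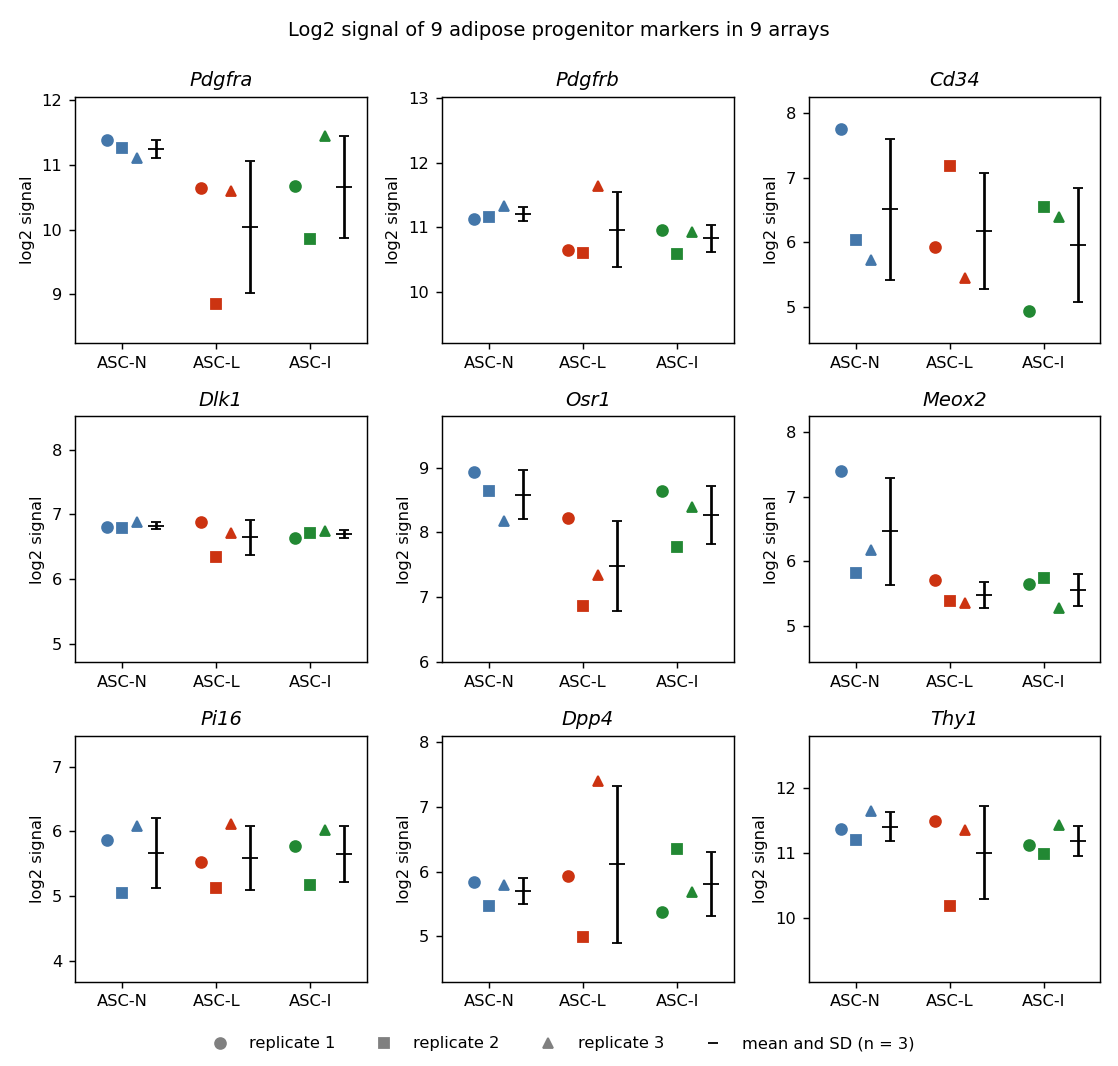
Log2 signal (vertical axis, a span of 3.8 in each panel) of the 9 measured progenitor markers in each array by stage, with the replicate given by the shape and the mean and SD of each stage beside it. The ASC-L arrays of Pdgfra and Meox2 lie below all ASC-N arrays, and ASC-L replicate 2 (square) is the lowest array for Pdgfra, Dlk1, Osr1, Dpp4 and Thy1.

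Pdgfra encodes a receptor for PDGF-A and PDGF-C dimers, among others, and is the surface marker most used for adipose progenitors. Its log2 signal was 11.38, 11.26 and 11.10 in ASC-N replicates 1 to 3. In ASC-Ls it was 10.65, 8.86 and 10.60, and in ASC-Is 10.67, 9.86 and 11.44. All ASC-L arrays lay below all ASC-N arrays, while the ASC-I arrays overlapped both stages and included the highest value of all. The mean was 10.03 ± 1.02 (SD, n = 3) in ASC-Ls, 10.66 ± 0.79 in ASC-Is and 11.25 ± 0.14 in ASC-Ns. ASC-Ls were thus 2.32-fold lower than ASC-Ns, a difference of -1.22 (SE 0.51). The gaps between neighboring stages were -0.62 between ASC-L and ASC-I arrays and -0.59 between ASC-I and ASC-N arrays (SE 0.51 for each). Neither exceeded the larger SD of the stages compared, though the second exceeded the SD of the ASC-N arrays. Without ASC-L replicate 2 the difference of ASC-Ls was -0.63 from ASC-Ns and -0.03 from ASC-Is. Without ASC-I replicate 2 the difference between ASC-I and ASC-N arrays was -0.19, and without ASC-I replicate 3 it was -0.99. The gap between ASC-L and ASC-N arrays was -1.52 and -1.50 without ASC-L replicate 1 or 3, and -1.15 to -1.29 without any single array of the other stages.

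Pdgfrb, a receptor for PDGF-B, marks pericytes and perivascular progenitors. Its log2 signal was 11.13, 11.17 and 11.33 in ASC-Ns, 10.65, 10.61 and 11.64 in ASC-Ls, and 10.96, 10.59 and 10.94 in ASC-Is. The lactation arrays were divided, with replicate 3 the highest and replicates 1 and 2 among the lowest of all 9. All ASC-I arrays lay below all ASC-N arrays, with a difference of -0.38 (SE 0.26), or 1.30-fold. The difference of ASC-L from ASC-N arrays was -0.24 and that from ASC-Is 0.14 (SE 0.26 for each), both smaller than the SD of the ASC-L arrays, 0.58. Without ASC-L replicate 2 they were -0.06 and 0.32, and without ASC-L replicate 3 they were -0.58 and -0.20.

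Osr1 is a zinc finger transcription factor of mesenchymal progenitors in the embryo and of fibro-adipogenic progenitors in muscle. Its log2 signal was 8.93, 8.63 and 8.17 in ASC-Ns, 8.22, 6.85 and 7.34 in ASC-Ls, and 8.63, 7.77 and 8.38 in ASC-Is. ASC-L replicate 1 overlapped the lowest ASC-N array, and replicates 2 and 3 lay below every array of the other stages. The mean was 7.47 ± 0.69 (SD, n = 3) in ASC-Ls, 8.26 ± 0.45 in ASC-Is and 8.58 ± 0.38 in ASC-Ns. ASC-Ls were 2.15-fold lower than ASC-Ns, by -1.11 (SE 0.36), and the difference was -0.80 without ASC-L replicate 2, -0.93 without ASC-N replicate 1 and -1.48 without ASC-L replicate 1.

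Against ASC-Is the signal of Osr1 was 1.73-fold lower in ASC-Ls, a difference of -0.79 (SE 0.36), and was not past the limits in the fit without pairing. Arrays of the same replicate number deviated together in ASC-Ls and ASC-Is. With the replicate number as a block, fitted over all 9 arrays, the SE was 0.23. Osr1 was then past the limits, as 1 of 9 genes, beside 0.965% of all probe sets. The block was chosen from these same data and what a shared number stands for is not stated, so that the smaller SE rests on an assumed pairing. The ASC-L array lay below the ASC-I array of the same number by differences of -0.41, -0.92 and -1.04. Without the block the difference was -1.17 without ASC-L replicate 1, -1.04 without ASC-I replicate 2 and -0.48 without ASC-L replicate 2.

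Meox2 is a homeobox transcription factor of mesoderm that restrains proliferation in vascular cells. Its log2 signal was 7.40, 5.82 and 6.18 in ASC-Ns, 5.72, 5.39 and 5.35 in ASC-Ls, and 5.65, 5.75 and 5.28 in ASC-Is. All 6 arrays of both later stages lay below all ASC-N arrays, though ASC-N replicate 1 lay far above the other ASC-N arrays and the gap between ASC-N replicate 2 and ASC-I replicate 2 was small. Meox2 lay below the array median everywhere but in ASC-N replicate 1, and its distance from background was not tested. The mean was 6.47 ± 0.83 (SD, n = 3) in ASC-Ns, 5.49 ± 0.20 in ASC-Ls and 5.56 ± 0.25 in ASC-Is. ASC-Ls were 1.97-fold and ASC-Is 1.87-fold lower than ASC-Ns, by -0.98 and -0.90 (SE 0.35 for each), and the later stages differed by -0.08 (SE 0.35). Without ASC-N replicate 1 these differences from ASC-Ns were -0.51 and -0.44, and without ASC-N replicate 2 they were -1.30 and -1.23. Leaving out ASC-L replicate 2 gave -0.93 for ASC-Ls, within the SE of the value from all arrays. The array weights that limma estimated moved the differences to -1.36 and -1.34.

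**Figure D2:**
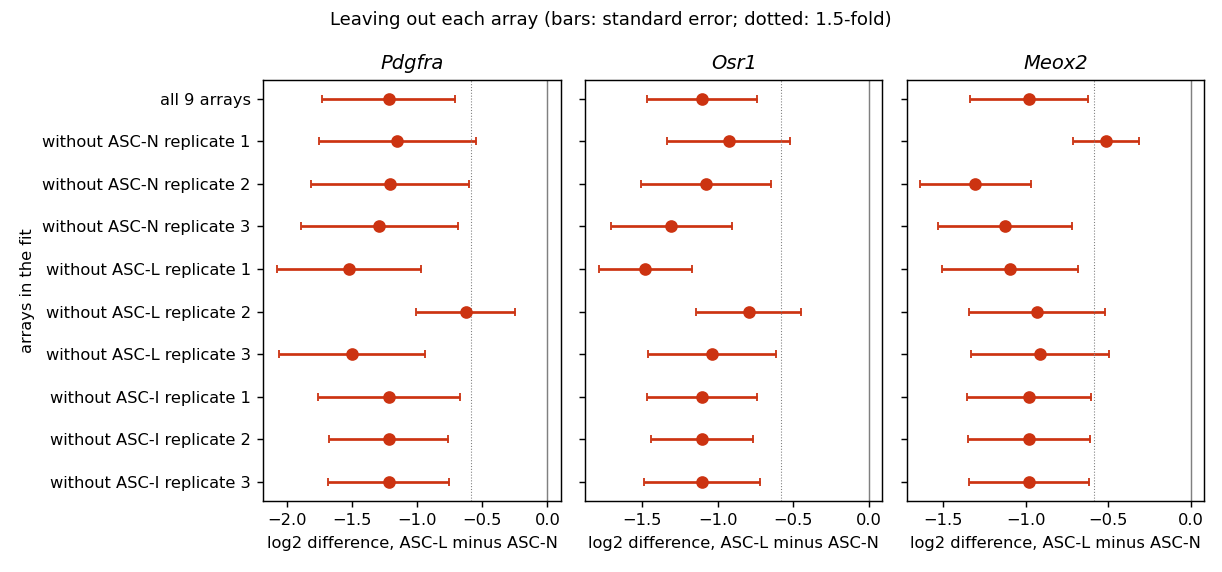
Log2 difference between ASC-L and ASC-N arrays (horizontal axis, bars give the SE) for Pdgfra, Osr1 and Meox2 in the fit of all 9 arrays and without each array, and a dotted line at 1.5-fold. Without ASC-L replicate 2 the values were -0.63, -0.80 and -0.93, and without ASC-N replicate 1 they were -1.15, -0.93 and -0.51. All values lay below 0, which for Pdgfra and Meox2 had to follow because their ASC-L and ASC-N arrays did not overlap.

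The count of 3 genes past the limits between ASC-L and ASC-N arrays was 0 without ASC-N replicate 1 and 0 without ASC-L replicate 2. Without the 2 epithelium-rich arrays it was again 3, with Dpp4, higher in ASC-Ls, in place of Meox2. It was 2 with an intensity trend and a robust prior, after quantile normalization and after cyclic loess, with Pdgfra no longer past the limits at -1.22, -1.18 and -1.18. The arrays of ASC-Ls and ASC-Ns did not overlap for 2 of the 9 genes, Pdgfra and Meox2, and for 8.46% of all probe sets. Those of ASC-Is and ASC-Ns did not overlap for 3, Meox2, Pdgfrb and Dlk1, and for 6.53% of all probe sets. No gene of the 9 had non-overlapping arrays between ASC-L and ASC-I arrays, where 5.59% of all probe sets did.

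**Figure D3:**
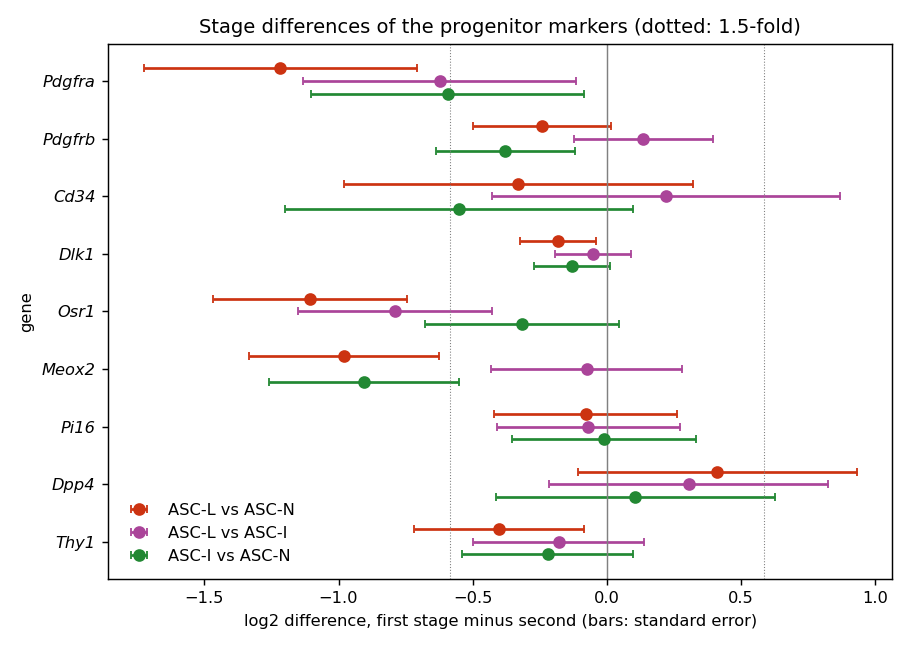
Log2 difference between stages, first minus second (horizontal axis), with the SE as bars, for the 9 measured progenitor markers, and dotted lines at 1.5-fold in either direction. Pdgfra, Osr1 and Meox2 lie furthest below 0 between ASC-L and ASC-N arrays, at -1.22, -1.11 and -0.98, whereas Pi16 lies near 0 in all 3 comparisons.

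Thy1 encodes the surface glycoprotein CD90 of fibroblasts and mesenchymal stromal cells. The signal was 11.38, 11.20 and 11.65 in ASC-Ns, 11.49, 10.18 and 11.35 in ASC-Ls, and 11.13, 10.99 and 11.44 in ASC-Is. The other 8 arrays lay within 0.66 of each other, and ASC-L replicate 2 lay below them all. The difference of ASC-L from ASC-N arrays was -0.40 (SE 0.32) with all arrays and 0.01 without ASC-L replicate 2. The difference between ASC-I and ASC-N arrays was -0.22 (SE 0.32). Between ASC-L and ASC-I arrays it was -0.18 (SE 0.32), and 0.23 without ASC-L replicate 2.

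Dlk1, or Pref-1, is a membrane protein of preadipocytes that inhibits their differentiation. It varied least of the 9 genes, over 0.54 in all arrays. Signals were 6.81, 6.79 and 6.88 in ASC-Ns, 6.88, 6.35 and 6.71 in ASC-Ls, and 6.63, 6.71 and 6.75 in ASC-Is. The ASC-I arrays lay just below the ASC-N arrays, by -0.13 (SE 0.14). The difference between ASC-L and ASC-N arrays was -0.18 (SE 0.14), and -0.03 without ASC-L replicate 2.

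Cd34 encodes a sialomucin of adipose progenitors that endothelial cells also carry. Log2 signals were 7.76, 6.04 and 5.73 in ASC-Ns, 5.92, 7.17 and 5.44 in ASC-Ls, and 4.94, 6.55 and 6.40 in ASC-Is. It had the widest range of the 9 genes, 2.82 over all arrays, and the stages overlapped fully. The difference of ASC-L from ASC-N arrays was -0.33, 0.29 without ASC-N replicate 1 and -0.83 without ASC-L replicate 2. That of ASC-I from ASC-N arrays was -0.55, and 0.07 without ASC-N replicate 1. Array weights moved these differences from ASC-Ns to -1.17 and -1.25. Between ASC-L and ASC-I arrays the difference was 0.22, and -0.28 without ASC-L replicate 2. The SE was 0.65 for each comparison with all arrays. The arrays highest in Cd34, ASC-N replicate 1, ASC-L replicate 2 and ASC-I replicate 2, were also the highest in 12 endothelial markers, with means of 6.70, 6.99 and 6.45 against 5.20 to 5.58 in the other 6 arrays. Pecam1, the endothelial antigen CD31, had log2 signals of 7.99, 8.03 and 7.22 in these 3 arrays and of 4.86 to 5.60 in the others. The part of endothelial RNA in the Cd34 signal was not tested.

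Dpp4, the dipeptidyl peptidase CD26, and Pi16 mark the interstitial progenitor pool. The log2 signal of Dpp4 was 5.83, 5.47 and 5.80 in ASC-Ns, 5.94, 5.00 and 7.41 in ASC-Ls, and 5.38, 6.35 and 5.69 in ASC-Is. The ASC-L arrays held both the lowest and the highest of the 9 values, with an SD of 1.22 against 0.20 in ASC-Ns. Only in ASC-L replicate 3 and ASC-I replicate 2 did Dpp4 lie above the array median, and its distance from background was not tested. The difference of ASC-L from ASC-N arrays was 0.41 (SE 0.52), which became -0.24 without ASC-L replicate 3 and 0.97 without ASC-L replicate 2. Without the 2 epithelium-rich arrays, Dpp4 was higher in ASC-Ls by 0.97 than in ASC-Ns and by 1.14 than in ASC-Is, where all arrays gave 0.31. Without ASC-L replicate 2 alone the difference from ASC-Is was 0.86. These values then rested on ASC-L replicates 1 and 3, at 5.94 and 7.41.

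The log2 signal of Pi16 was 5.87, 5.05 and 6.08 in ASC-Ns, 5.52, 5.12 and 6.11 in ASC-Ls, and 5.77, 5.18 and 6.02 in ASC-Is. In each stage replicate 2 was the lowest and replicate 3 the highest, so that arrays of the same number resembled each other more than arrays of the same stage. Pi16 lay below the median of every array, and its distance from background was not tested. The differences between stages were -0.08, -0.07 and -0.01 (SE 0.34 for each), and with the replicate number as a block the SE was 0.12. The first was 0.15 and the second 0.16 without ASC-L replicate 2.

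**Figure D4:**
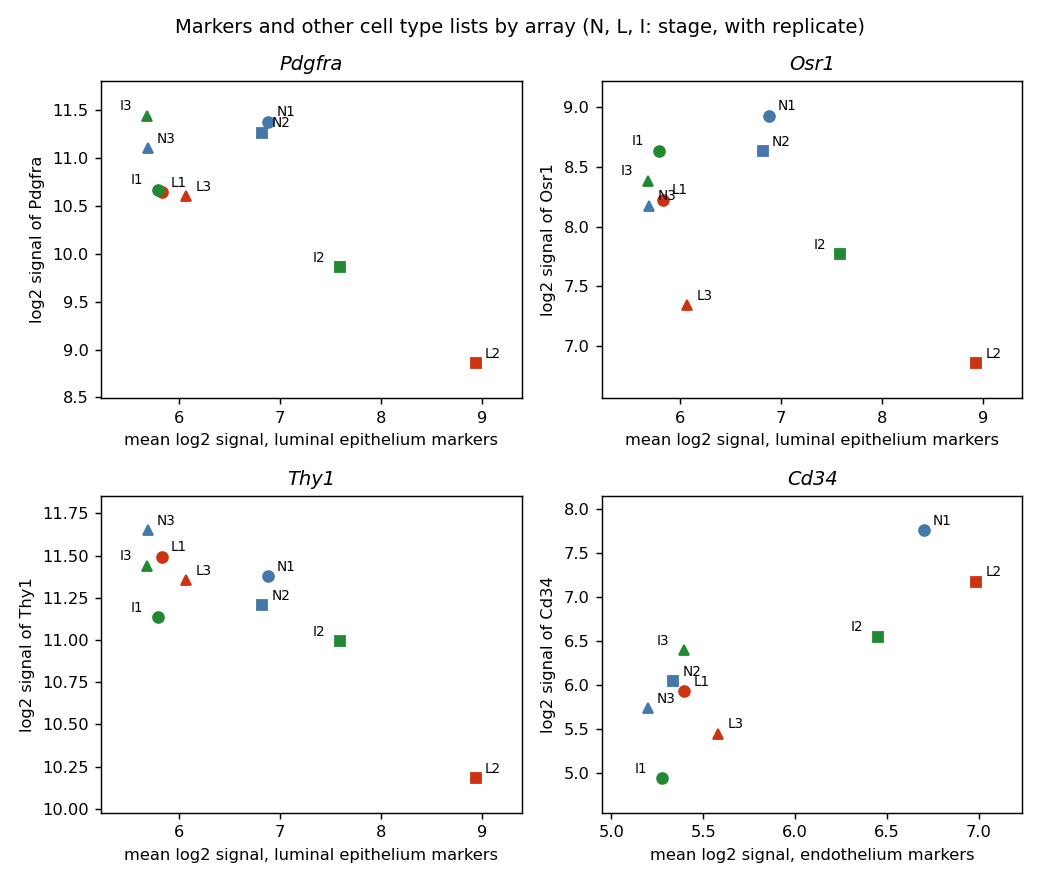
Log2 signal of Pdgfra, Osr1 and Thy1 against the mean log2 signal of 14 luminal epithelial markers, and of Cd34 against that of 12 endothelial markers, with each point an array labelled by stage and replicate. ASC-L replicate 2 (L2) is the highest in both marker lists, at 8.93 and 6.99, and the lowest for Pdgfra, Osr1 and Thy1.

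Markers of other cells moved with these genes in part. Without the 2 epithelium-rich arrays, Pdgfra and Osr1 were still lower in the ASC-L than in the ASC-N arrays, by -0.63 and -0.80. ASC-L replicates 1 and 3 had luminal means of 5.83 and 6.07, between those of the ASC-N arrays, which were 6.88, 6.82 and 5.69. Their fibroblast means were 11.28 and 11.19, and those of the ASC-Ns 10.87 to 11.30. The 18 macrophage markers averaged 6.37 to 6.74 in ASC-Ls, 7.16 to 8.65 in ASC-Is, and 8.10, 7.99 and 5.996 in ASC-N replicates 1 to 3. Meox2 was highest in ASC-N replicate 1, which was also high in endothelial and macrophage markers. All 6 markers of T cells lay below the median of every array, and Cd3e, a chain of the T cell receptor complex, lay between 5.57 and 5.96. The part of these cells in the signal of the progenitor markers was not tested.

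Other genes of the progenitor pathway were read from 6 lists, of which 92 of 96 genes were measured, using the mean of the probe sets of a gene. The lists were drawn up with earlier results of these data known. Of the 92 genes, 5 were past the limits between ASC-L and ASC-N arrays, beside 0.627% of all genes, 1 between ASC-L and ASC-I arrays, beside 0.482%, and 3 between ASC-I and ASC-N arrays, beside 0.251%. Each of these genes had an adjusted p over all genes of 0.998 to 1.00 in limma. With the replicate number as a block, the count between ASC-L and ASC-I arrays was 3. Leaving out single arrays moved the counts to between 2 and 9, 0 and 6, and 1 and 5.

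Of 10 genes of committed preadipocytes, 7 were lower in the ASC-L than in the ASC-N arrays, with a median of -0.34 against 0.01 over all genes, and only Pparg was past the limits. Pparg is the nuclear receptor that drives adipocyte differentiation, downstream of the progenitor state. Its log2 signal was 7.61, 8.26 and 7.83 in ASC-Ns, 6.95, 6.63 and 7.23 in ASC-Ls, and 7.03, 6.74 and 7.42 in ASC-Is. All 6 arrays of the later stages lay below all ASC-N arrays, and the differences, -0.96 and -0.83 (SE 0.24 for each), were past the limits without any single array, at -0.78 to -1.11 and -0.65 to -1.01. Between ASC-Ls and ASC-Is no gene of this list was past the limits. Cd36, a fatty acid translocase that endothelial cells and macrophages also express, was 7.60 ± 1.42 (SD, n = 3) in ASC-Is and 6.79 ± 1.81 in ASC-Ls, and the matricellular Sparcl1 was 6.53 ± 1.67 and 7.35 ± 2.24, so that their spread within a stage was wider than the difference.

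Of 11 genes of interstitial progenitors, the pool of Dpp4 and Pi16, none was past the limits in any comparison, and 4 were lower and 7 higher in the ASC-L than in the ASC-N arrays. Sema3c, a guidance factor, had log2 signals of 6.65 to 6.84 in ASC-Ls and 7.25 to 7.64 in ASC-Ns, a difference of -0.70 (SE 0.53). Its ASC-L arrays all lay below its ASC-N arrays, and the wide SE comes with ASC-I replicate 3, at 9.22 against 7.13 and 6.72 in the other ASC-I arrays. Cd55, a complement regulator, ranged from 5.15 to 9.37 within ASC-Ls alone. The chemokine scavenger Ackr3 differed by -0.43 (SE 0.62) between ASC-L and ASC-N arrays, and by -0.05 without ASC-L replicate 2, and Pcolce2, a collagen-processing enhancer, by -0.29 (SE 0.67) between ASC-I and ASC-N arrays.

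Of 8 genes of stromal progenitors bearing F3, Gdf10 and Cygb were past the limits between ASC-L and ASC-N arrays. Gdf10, a BMP-related ligand, had log2 signals of 8.36, 7.72 and 8.55 in ASC-Ns, 7.06, 6.42 and 6.92 in ASC-Ls, and 6.72, 6.91 and 8.996 in ASC-Is. All its ASC-L arrays lay below all its ASC-N arrays, by -1.41 (SE 0.54), and the call was lost without ASC-N replicate 1 or 3 or ASC-L replicate 2 or 3, at -1.22 to -1.47. Cygb, the globin of stromal fibroblasts, differed by -1.03 (SE 0.41), with 9.39, 8.90 and 9.65 in ASC-Ns and 7.99, 7.67 and 9.21 in ASC-Ls, and the call was lost without ASC-N replicate 1 or 3 or ASC-L replicate 1 or 2, at -0.72 to -0.99, and after cyclic loess, at -0.98. In ASC-Is the calcification inhibitor Mgp was past the limits, at -1.03 against ASC-Ns (SE 0.42), with 7.15, 7.16 and 8.30 against 8.65, 8.24 and 8.81, and the call was lost without ASC-N replicate 1 or 3 or ASC-I replicate 1 or 2, at -0.84 to -0.99. None of the 3 was past the limits without the 2 epithelium-rich arrays, at -1.22, -0.72 and -0.84. Fmo2, a monooxygenase, was 9.21 ± 1.81 (SD, n = 3) in ASC-Ls and 8.11 ± 1.39 in ASC-Is.

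Of 15 ligands and signaling partners of the PDGF receptors, none was past the limits between ASC-Ls and either other stage. Pdgfa, a ligand of the Pdgfra product, had log2 signals of 8.51, 8.65 and 8.91 in ASC-Ns and 8.94, 10.16 and 8.81 in ASC-Ls, a difference of 0.61 (SE 0.34) that was 0.19 without ASC-L replicate 2. Pdgfb, a ligand of the Pdgfrb product that endothelial cells make, reached 9.22 and 7.33 in the ASC-L and ASC-I epithelium-rich arrays, and 5.71 to 6.97 in the other arrays. Both were thus highest in ASC-L replicate 2, in which Pdgfra was lowest and the luminal and endothelial marker means were highest. Without that array the difference of Pdgfb between ASC-L and ASC-N arrays was -0.44, against 0.68 with all arrays. Whether ligand and receptor signals are linked was not tested. The remaining ligands are named here after their values were seen. Pdgfc, another ligand of the Pdgfra product, was likewise highest in ASC-L replicate 2, at 10.71, and 8.37 to 10.55 elsewhere. Pdgfd, a ligand of the Pdgfrb product, ran the other way and was lowest in that array, at 8.06 against 8.47 to 9.90 elsewhere. The receptor-like Pdgfrl differed by -0.50 (SE 0.44) between ASC-L and ASC-I arrays, and by -0.12 without ASC-L replicate 2. Ptprj, a phosphatase that acts on PDGF receptors, was past the limits between ASC-I and ASC-N arrays as the mean of 2 probe sets, at 0.60 (SE 0.24), with 8.55, 8.41 and 8.10 against 7.91, 7.58 and 7.76. The call was lost without ASC-N replicate 2 or 3 or ASC-I replicate 1 or 2, at 0.50 to 0.61, with array weights, at 0.54, and without the 2 epithelium-rich arrays, at 0.57.

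Of 17 further markers of mesenchymal and adipose progenitors, none was past the limits in any comparison, with medians of 0.10, 0.03 and -0.02 against 0.01, 0.01 and 0.00 over all genes. Ccn5, a matricellular protein of progenitor cells, was 9.85 ± 1.03 (SD, n = 3) in ASC-Ns and 8.69 ± 1.49 in ASC-Ls, and its lowest arrays were ASC-L replicate 2 and ASC-I replicate 2, at 6.96 and 7.24. Nt5e, the mesenchymal and epithelial surface enzyme CD73, was highest in ASC-L replicate 2, at 9.11 against 5.83 to 7.44 in the others. Zfp521, a zinc finger regulator that restrains adipogenesis, was lower in the ASC-I than in the ASC-N arrays by -0.87 (SE 0.43), with 7.60, 7.20 and 8.16 against 8.70, 8.44 and 8.41. Its arrays did not overlap between those stages, and it was past the limits without the 2 epithelium-rich arrays, at -0.64.

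Of 31 measured paralogues and partners of the 10 genes, Csf1r and Ly6d were past the limits between ASC-L and ASC-N arrays. Csf1r, a receptor of the same family as Pdgfra that is the macrophage CSF1 receptor, was 7.86, 7.93 and 6.41 in ASC-Ns, 6.60, 6.32 and 6.09 in ASC-Ls, and 8.10, 6.75 and 7.10 in ASC-Is. Its ASC-N replicate 3 overlapped the ASC-L arrays, the same array that was low in macrophage markers. The difference was -1.07 (SE 0.45), and without 6 single arrays, ASC-N replicates 1 and 2, the 3 ASC-L arrays and ASC-I replicate 3, it was not past the limits, at -0.80 to -1.20. The same held without the 2 epithelium-rich arrays, at -1.06. Ly6d, a relative of Ly6a found on epithelial and lymphoid cells, was higher in ASC-Ls by 0.86 (SE 0.35), with 5.19, 6.69 and 5.39 against 5.16, 4.79 and 4.73, and the call was lost without ASC-N replicate 2 or 3, at 0.81 and 0.78, or ASC-L replicate 2, at 0.39. It was also lost with only the stages compared, at 0.86, with array weights, at 0.51, after cyclic loess, at 0.81, and without the 2 epithelium-rich arrays, at 0.39.

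Dlk1 lies in an imprinted region of chromosome 12 with Meg3, Rtl1 and Dio3. Dio3, the deiodinase that inactivates thyroid hormone, was the 1 gene of the lists past the limits between ASC-L and ASC-I arrays, with 5.58, 4.67 and 4.65 in ASC-Ls, 6.43, 5.26 and 7.11 in ASC-Is, and 6.42, 5.14 and 6.19 in ASC-Ns. Its difference was -1.30 (SE 0.50), and the call was lost without ASC-L replicate 2 or 3 or ASC-I replicate 1 or 3, at -0.88 to -1.22. With the replicate number as a block, Meg3, the noncoding RNA of the region, and Csf1r were past the limits in this comparison as well, at -0.67 and -0.98. Meg3 and Rtl1 are named after their values were seen, and Rtl1 stayed between 5.67 and 5.90 in all arrays. Dlk1 itself differed by -0.05 (SE 0.14) between these stages, and by 0.10 without ASC-L replicate 2. Between ASC-Is and ASC-Ns no gene of this list was past the limits, with Glipr1, a relative of Pi16, at 0.42 (SE 0.51).

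For each gene the 3 others whose log2 signal was most correlated with it over the 9 arrays were listed, as a description, since all points share the same arrays and stages. ASC-L replicate 2 was the lowest array for Pdgfra, Dlk1, Osr1, Dpp4 and Thy1, and the correlations were not recomputed without it. Dpysl2, Rnf150 and Gas1 were most like Pdgfra, with Pearson r of 0.986, 0.971 and 0.967, and 112 genes had an r over 0.9 with it. Pea15a, Zadh2 and Inca1 were most like Thy1, at 0.981, 0.976 and 0.973, among 105 genes over 0.9, and Pea15a and Inca1 also led for Dlk1, at 0.940 and 0.938, followed by Cend1 at 0.934. Scgb2b2, Tmem150a and Pi4ka were most like Pdgfrb, at 0.977, 0.965 and 0.964. Nipsnap2, Phka1 and Ccdc167 were most like Osr1, at 0.962, 0.951 and 0.947, among 52 genes over 0.9. Few genes followed Meox2, with 3 over 0.9, Vstm4, Reg1 and Chrdl1, at 0.951, 0.916 and 0.908. Gtf2a2, I730030J21Rik and Tent2 were most like Cd34, at 0.951, 0.932 and 0.922. Slc35d3, Tmem179b and Slc10a6 were most like Pi16, at 0.990, 0.960 and 0.953, and Txndc2, Mrgprx2 and Myom2 most like Dpp4, at 0.965, 0.930 and 0.922. Some of these genes varied little, such as Gtf2a2, with an SD of 0.17 over the arrays.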

How the data were processed

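The deposited log2 values are the authors' own. The study's methods name robust multi-array average for them, while the submitters' processing notes list GCRMA and limma with no version, and no further normalization was applied. RNA was extracted with an RNeasy kit according to the methods and with Trizol according to the labels. Only probe sets of 1 symbol were used, which left out 1621 with several and 4965 with none, and slide and scan dates were not used here.

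Stage means were fitted to all 9 arrays with limma 3.58.1 in R 4.3.3, with empirical Bayes moderation (prior degrees of freedom 2.97), on probe sets for the 9 genes and on gene means for the lists. The limits, an unadjusted p under 0.05 and 1.5-fold, were those that the study's gene tables meet. The 10 genes and the lists were chosen with earlier results of these data known. Named were these 10 genes, up to 3 genes of a list with the largest change past the limits in a comparison or up to 2 with values only, the 3 genes most correlated with each of the 10, and defining markers of other cells. The fit was tested on simulated data with known changes. With 3 arrays per stage, the number of arrays limits the precision.

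Replicate numbers are shared between stages, and neither the labels nor the methods say whether a number marks a shared day or batch. Same-numbered ASC-L and ASC-I arrays deviated together from their stage means, with r of 0.46, 0.72 and 0.45 over probe sets for numbers 1 to 3. Same-numbered ASC-L and ASC-N arrays had r of -0.09, 0.40 and 0.45, and ASC-I and ASC-N arrays 0.06, 0.44 and 0.50, so that not every pair was over 0.1. Therefore values from a model blocked on replicate number are given in the comparison of ASC-Ls with ASC-Is where they changed a call or a count. The alternatives were only the stages compared, an intensity trend with a robust prior, array weights, quantile normalization, cyclic loess, removal of probe sets of low signal (the lowest 25%) or of an SD under 0.05, all probe sets of the table, the replicate block, leaving out each array, and leaving out ASC-L replicate 2 and ASC-I replicate 2 together. Sequences and gene names are from RefSeq, GRCm38.p6.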

Additional observations from a re-analysis of the deposited data

How the results depend on the processing

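Of 513 recomputed stage differences of the 9 genes, over 27 results, 512 moved by less than the SD of the arrays within stages. None that was past the limits changed sign, which leaving out arrays could not bring about for Pdgfra and Meox2, whose arrays did not overlap. The difference of Dpp4 between ASC-L and ASC-I arrays moved to 1.14 without the 2 epithelium-rich arrays. Many of the 513 could not move, so that the count is no measure of stability. The intensity trend, the fit of only the stages compared, the filters, all probe sets and the replicate block leave a difference of means unchanged. So does leaving out an array of the third stage. A move within the SD can still change the sign, as for Cd34 between ASC-L and ASC-N arrays, from -0.33 to 0.29 without ASC-N replicate 1. The count of these genes past the limits was 0 to 3 without single arrays between ASC-L and ASC-N arrays, 0 to 1 between ASC-L and ASC-I arrays and 0 to 1 between ASC-I and ASC-N arrays. With an intensity trend and a robust prior, after quantile normalization and after cyclic loess it was 2 between ASC-L and ASC-N arrays. It was 0 between ASC-I and ASC-N arrays with only the stages compared, and 1 between ASC-L and ASC-I arrays with the replicate block and without the 2 epithelium-rich arrays. With the replicate block, the counts of all probe sets were 305, 210 and 103, against 135, 99 and 59, and the counts of the other progenitor genes 12, 3 and 5, against 5, 1 and 3. Between ASC-L and ASC-I arrays the block changed no other call of a gene named here than those of Osr1, Meg3 and Csf1r. In both other comparisons same-numbered arrays deviated together for replicates 2 and 3 but not for replicate 1, at r of -0.09 and 0.06. There the block left the counts of the 9 genes at 3 and 1. Array weights gave 343 and 221 probe sets between ASC-L and ASC-N arrays and between ASC-I and ASC-N arrays, and 3 other progenitor genes between ASC-L and ASC-I arrays. Without the 2 epithelium-rich arrays, 207 and 172 probe sets were past the limits between ASC-L and ASC-I arrays and between ASC-I and ASC-N arrays, and 2 and 3 other progenitor genes between ASC-L and ASC-N arrays and between ASC-L and ASC-I arrays. With only the stages compared, 2 and 5 other progenitor genes were past them between ASC-L and ASC-I arrays and between ASC-I and ASC-N arrays, and after cyclic loess 3 between ASC-L and ASC-N arrays. Without single arrays, the counts of all probe sets were 93 to 455, 38 to 372 and 38 to 243, and those of the other progenitor genes 2 to 9, 0 to 6 and 1 to 5, lowest for all probe sets without ASC-N replicate 1, ASC-I replicate 1 and ASC-N replicate 1. The cause of these shifts was not tested. Using each probe set on its own changed nothing, since each of the 9 genes has 1. Signals near the background of the array could not be told from it in these values.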
